A study of Mus musculus with 6 samples.

Results

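Heme and iron handling was examined through 10 genes that encode the enzymes, receptors, transporters and storage proteins by which macrophages take up, break down, store and release heme and iron. The members were the rows of the gene table named Hmox1, Blvrb, Cd163, Tfrc, Slc11a1, Slc11a2, Fth1, Ftl1, Slc40a1 and Hfe, which are 10 of 54532 genes listed, and all 10 were found. RNA had been sequenced from BMDMs (bone marrow-derived macrophages of the mouse) after in vitro co-culture with ID8, an established mouse ovarian cancer cell line. The marrow came from C57BL/6 mice 6 to 8 weeks old, and no genotype other than this strain is given. The labels name the cells BMDMs and the study's methods call them monocytes derived from bone marrow, and neither states whether the cells touched in co-culture or how the BMDMs were separated from ID8 before RNA extraction, so each value may include RNA of ID8 cells. In the cisplatin group (3 libraries) the ID8 cells had been treated beforehand with 40 µM cisplatin, a DNA-crosslinking platinum agent, and in the PBS group (3 libraries) with phosphate-buffered saline, so that the BMDMs of both groups had met tumour cells and no library of BMDMs alone entered the comparison. The study's methods speak of biological replicates in general terms, but neither they nor the labels state that the 3 libraries of a group came from separate cultures or mice, so the p-values measure the spread between these libraries, which may be technical. Values are FPKM, read fragments scaled to gene length in kilobases and to sequencing depth, and fold changes are given as cisplatin against PBS.

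Macrophages are the cells that clear old red blood cells and haemoglobin, and they return the iron they recover to the blood. Heme is opened by heme oxygenase, which frees its iron and leaves biliverdin, and the iron is then either stored inside ferritin or exported through ferroportin, the iron exporter of mammalian cells. Iron also enters through the transferrin receptor and leaves endosomes and phagosomes through divalent metal transporters. Cells sense their own iron through iron regulatory proteins, which bind a short RNA hairpin, the iron-responsive element. Bound at the start of a transcript the proteins hold back its translation, and bound at its end they slow its decay. In inflammation macrophages are known to hold iron back from the blood.

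The hairpin is shown for the members that matched a strict form of it, since there it lies at the start of storage and export transcripts and at the end of an uptake transcript. The 5′ and 3′ untranslated regions of GENCODE release M21 transcripts (mouse build GRCm38) were searched for the loop CAGTGN closed by a stem of 5 base pairs, in which G may pair with T, and preceded by a C just before the stem. Pairing further out was not required. Each element is printed 5′ to 3′ on the strand of its gene, with the loop in capitals and flanking bases on both sides of the stem.

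Fth1, 5′ untranslated region, chr19:9982732-9982760, plus strand: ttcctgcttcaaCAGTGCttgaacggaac
Ftl1, 5′ untranslated region, chr7:45459779-45459807, minus strand: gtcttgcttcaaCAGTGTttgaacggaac
Slc40a1, 5′ untranslated region, chr1:45925465-45925493, minus strand: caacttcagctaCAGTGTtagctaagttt
Tfrc, 3′ untranslated region, chr16:32631219-32631247, plus strand: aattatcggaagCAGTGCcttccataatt
Tfrc, 3′ untranslated region, chr16:32631598-32631626, plus strand: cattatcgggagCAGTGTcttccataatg
Tfrc, 3′ untranslated region, chr16:32631663-32631691, plus strand: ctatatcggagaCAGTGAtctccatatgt
Tfrc, 3′ untranslated region, chr16:32631710-32631738, plus strand: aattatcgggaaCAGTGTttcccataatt

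The pattern lay in the 5′ untranslated region of 31 of 20916 genes (0.148%) and in the 3′ untranslated region of 129 of 21045 genes (0.613%). Of the members, Fth1, Ftl1 and Slc40a1 carried 1 element each at the 5′ end and Tfrc carried 4 at the 3′ end, within 1 exon, and no match was found in the other 6. Known elements can fall outside so strict a pattern, and Slc11a2 is known for transcripts with an element at the 3′ end. A match describes the sequence and is no measure of protein binding, and the gene-level values here do not separate transcripts that have the element from transcripts that lack it.

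The recovered reads, which follow from the FPKM and the gene lengths, summed to 15776238 to 16396353 in the cisplatin libraries and to 15907567 to 17924686 in the PBS libraries. The makeup of the RNA differed between the groups. All 9 macrophage markers were higher in every cisplatin library than in every PBS library, with a summed level of 4227 to 4380 FPKM against 1659 to 1670.1. Most of that sum was Lyz2 (means of 3459 and 1161 FPKM). The others were from 1.15-fold (Cd68) to 5.90-fold (Mertk, at 1.72 and 0.29 FPKM) higher. In contrast, 9 of 12 ID8 and mesothelial markers were lower, with a summed level of 242 to 262 against 1307 to 1411. Among these 12, Krt7, Lrrn4 and Igfbp5 were at or near 0 in both groups. Among 7 granulocyte markers, 6 were higher in every cisplatin library (summed level 8155 to 8421 against 4581 to 4737 FPKM), and Ly6g overlapped between the groups. Most of that sum was S100a8 (means of 2581 and 1423 FPKM) and S100a9 (5233 and 3105 FPKM), whereas Mpo rose the most of the 7 (6.47-fold). Among 6 lymphocyte markers, the 4 B cell genes were higher (summed level of all 6, 433 to 443 against 189 to 195 FPKM), and the T cell genes Cd3e and Cd3g stayed under 1 FPKM and overlapped. Over all genes tested, the cisplatin libraries all lay above the PBS libraries in 35.2% and all below them in 37.2%. The members described next moved in both directions beside these lists, and the part of the lists in each difference was not tested. In such bulk RNA, fewer cells of a type and less RNA per cell cannot be told apart.

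The export gene and the heme-degrading gene rose with cisplatin on the values as deposited, and these were the only members called. Slc40a1 (ferroportin) was 4.09-fold and Hmox1 (heme oxygenase 1) 2.18-fold higher, while Slc11a1, Tfrc and Ftl1 were 1.77-, 1.59- and 1.56-fold higher, a direction that these 3 lost when the libraries were scaled by Y-linked genes. That scaling moved the median of all genes to -0.82 on the log2 scale, and under it neither Slc40a1 (log2 fold change 0.92) nor Hmox1 (0.15) was called. Relative to that median the members stood at 1.74 (Slc40a1), 0.97 (Hmox1), 0.67 (Slc11a1), 0.52 (Tfrc) and 0.49 (Ftl1). Hfe was 2.28-fold and Slc11a2 1.15-fold lower, and Hfe, not called here, was called lower under some other settings given below. Fth1 and Blvrb differed by 1.05- and 1.11-fold and did not pass the test. Of the 10 members, 9 were expressed highly enough to be tested (FPKM of at least 1 in at least 3 libraries), and Cd163 was not.

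A gene was called when its adjusted p from limma (Benjamini-Hochberg over all 13441 genes tested) was under 0.05 and its log2 fold change, on the log2(FPKM + 1) scale, was at least 1 in size. By this rule 2 of the 9 members tested were called higher, against 4.67% of all genes tested, and 0 were called lower, against 11.3% (2 were lower at an unadjusted p under 0.05). By the adjusted p alone, 5 members were higher, against 32.9% of all genes, and 2 were lower, against 35.1%. The cisplatin libraries all lay above the PBS libraries in 6 of the 9, against 35.2% of all genes, and all below them in 2, against 37.2%. The median log2 fold change was 0.64 over the members tested and -0.0011 over all genes tested. Separation of the groups by itself was thus common in these libraries.

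**Figure D1:**
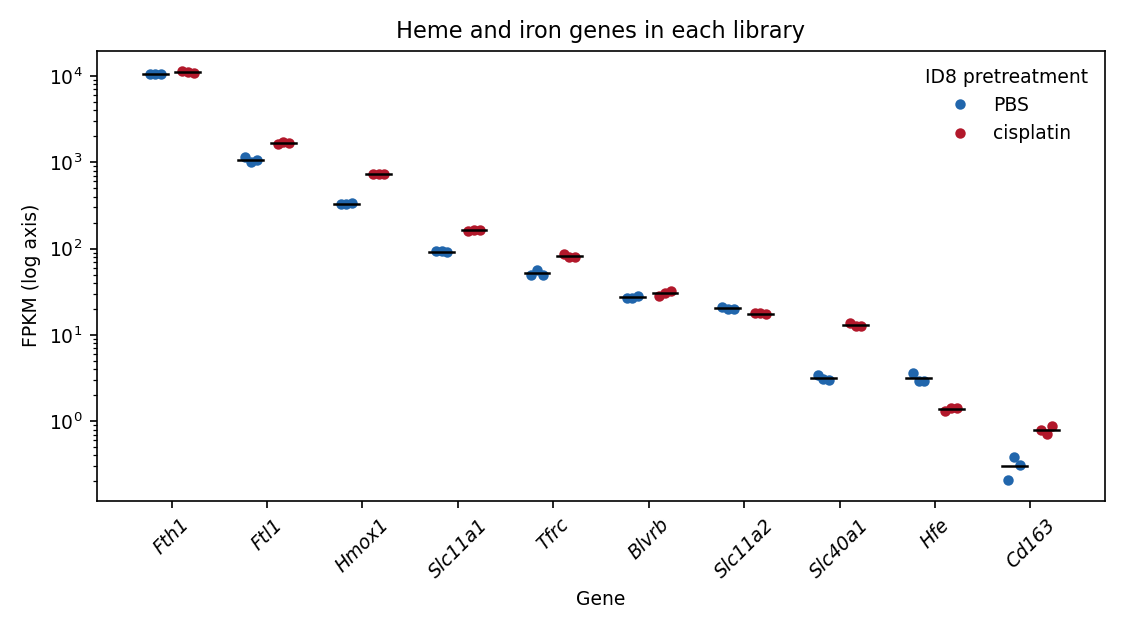
FPKM of each member (log axis) in the 3 PBS libraries (blue) and the 3 cisplatin libraries (red), with the group mean as a bar and the genes ordered by level. The levels run from over 10000 FPKM for Fth1 to under 1 for Cd163, and the groups stand furthest apart for Slc40a1, Cd163, Hfe and Hmox1.

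The breakdown of heme begins with Hmox1 (ENSMUSG00000005413, chromosome 8, 75093621 to 75100589, plus strand), which encodes the inducible heme oxygenase. Its level was 725, 722 and 727 FPKM in cisplatin replicates 1 to 3 and 332, 324 and 339.9 FPKM in PBS replicates 1 to 3. The cisplatin libraries lay within a few FPKM of each other and all far above the PBS libraries. The means were 725 ± 2.52 and 332 ± 7.81 FPKM (SD, n = 3 each), and the log2 fold change was 1.12 (SE 0.031, limma adjusted p = 2.68e-07). By mean level Hmox1 stood 25th among all genes with cisplatin and 74th with PBS.

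Blvrb (ENSMUSG00000040466, chromosome 7, 27447978 to 27466144, plus strand) encodes biliverdin reductase B, which acts after heme oxygenase in the formation of bilirubin. It was at 27.9, 30.7 and 32.1 FPKM with cisplatin and at 26.5, 27.0 and 28.1 FPKM with PBS. Cisplatin replicate 1 lay below the highest PBS library, so the groups overlapped. The log2 fold change of 0.15 (SE 0.057, 95% interval 0.0090 to 0.28) did not pass the test (limma adjusted p = 0.0577), although it did without cisplatin replicate 1 (log2 fold change 0.20, adjusted p = 0.00954).

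Cd163 (ENSMUSG00000008845, chromosome 6, 124304656 to 124330527, plus strand) encodes the scavenger receptor for complexes of haptoglobin and haemoglobin, the entry of haemoglobin-bound heme into macrophages. It was listed at 0.79, 0.70 and 0.89 FPKM with cisplatin and at 0.21, 0.39 and 0.31 FPKM with PBS, which corresponds to 63 to 80 reads against 20 to 33. All 3 cisplatin libraries lay above the PBS libraries, yet the level stayed under 1 FPKM in each of the 6. The means of 0.79 ± 0.092 and 0.30 ± 0.091 FPKM (SD, n = 3 each) gave a ratio of 2.63. Cd163 entered the test only when no filter on low values was set (log2 fold change 0.46, SE 0.10, limma adjusted p = 0.0170), and at this level the log2(FPKM + 1) scale understates the ratio.

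Iron uptake was represented by Tfrc and by the divalent metal transporters. Tfrc (ENSMUSG00000022797, chromosome 16, 32608920 to 32632794, plus strand) encodes transferrin receptor 1, which brings transferrin-bound iron into the cell and whose transcript bears the 4 hairpins at its 3′ end. Its level was 86.6, 79.5 and 80.9 FPKM with cisplatin and 49.6, 56.3 and 49.7 FPKM with PBS. No library of one group reached the other. The means were 82.3 ± 3.71 and 51.9 ± 3.87 FPKM (SD, n = 3 each), with a log2 fold change of 0.66 (SE 0.061, limma adjusted p = 7.63e-05), short of the fold threshold.

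Slc11a1 (ENSMUSG00000026177, chromosome 1, 74375195 to 74386062, plus strand) encodes NRAMP1, the metal transporter of phagosomes in macrophages and neutrophils that withholds metal ions from ingested microbes. It was at 162, 164 and 165 FPKM with cisplatin and at 93.4, 93.0 and 90.3 FPKM with PBS. Both groups were tight and did not overlap. The log2 fold change was 0.82 (SE 0.030, limma adjusted p = 8.59e-07), also short of the fold threshold.

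Its relative Slc11a2 (ENSMUSG00000023030, chromosome 15, 100387898 to 100425072, minus strand) encodes DMT1, which moves iron out of endosomes after transferrin uptake and takes up iron in the gut. It went the other way, at 17.8, 17.9 and 17.4 FPKM with cisplatin against 21.1, 19.99 and 20.1 FPKM with PBS. The groups lay apart, but by a small amount (log2 fold change -0.20, SE 0.039, limma adjusted p = 0.00359). Slc11a2 overlaps Gm5475 in the annotation, and reads of the 2 could not be told apart here.

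Storage was at a very high level in both groups. Fth1 (ENSMUSG00000024661, chromosome 19, 9982703 to 9985092, plus strand) encodes the ferritin heavy chain, which oxidises the iron that ferritin takes in, and it had the highest FPKM of all genes in each of the 6 libraries. It was at 11364, 11055 and 10849 FPKM with cisplatin and at 10646, 10418 and 10498 FPKM with PBS. The groups did not overlap, but the gap between their nearest libraries was smaller than the SD of the cisplatin group (means of 11089.5 ± 259 and 10520.4 ± 116 FPKM, n = 3 each). The log2 fold change of 0.076 (SE 0.042, 95% interval -0.024 to 0.18) did not pass the test (limma adjusted p = 0.148).

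Ftl1 (ENSMUSG00000050708, chromosome 7, 45457944 to 45459884, minus strand), which encodes the ferritin light chain, the subunit that helps to form the iron core, did rise. It was at 1624, 1732 and 1667 FPKM with cisplatin and at 1140.3, 1011 and 1064 FPKM with PBS, with no overlap. The log2 fold change was 0.64 (SE 0.053, limma adjusted p = 4.24e-05), short of the fold threshold. Both ferritin chains have near-identical copies in the genome, so their reads are less certain to be theirs. Of 14 other rows whose names begin with Fth or Ftl, 10 were listed at 0 in all libraries, and the highest of the other 4, Ftl1-ps1, had means of 27.5 ± 4.78 and 15.7 ± 2.94 FPKM (SD, n = 3 each). Ftl1 also overlaps Gm10252 and Gm22133.

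Slc40a1 (ENSMUSG00000025993, chromosome 1, 45908068 to 45926523, minus strand), which encodes ferroportin, changed the most of the members. It was at 13.7, 12.6 and 12.8 FPKM with cisplatin and at 3.47, 3.05 and 3.02 FPKM with PBS, from 1856 to 2094 reads against 421 to 553. Every cisplatin library stood more than 3 times above every PBS library. The means were 13.01 ± 0.59 and 3.18 ± 0.25 FPKM (SD, n = 3 each), and the log2 fold change was 1.75 (SE 0.064, 95% interval 1.59 to 1.90, limma adjusted p = 8.54e-07).

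Hfe (ENSMUSG00000006611, chromosome 13, 23702034 to 23710854, minus strand) encodes an MHC class I-like protein that binds transferrin receptor 1 and takes part in the control of hepcidin, the hormone that removes ferroportin from the cell surface. Its level was 1.30, 1.42 and 1.41 FPKM with cisplatin and 3.57, 2.89 and 2.92 FPKM with PBS, from 79 to 83 reads against 161 to 226. The groups did not overlap. The log2 fold change was -0.80 (SE 0.089, 95% interval -1.01 to -0.58, limma adjusted p = 0.000204), short of the fold threshold at the pseudocount of 1. With a pseudocount of 0.1 it was -1.13, and Hfe was then called lower.

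**Figure D2:**
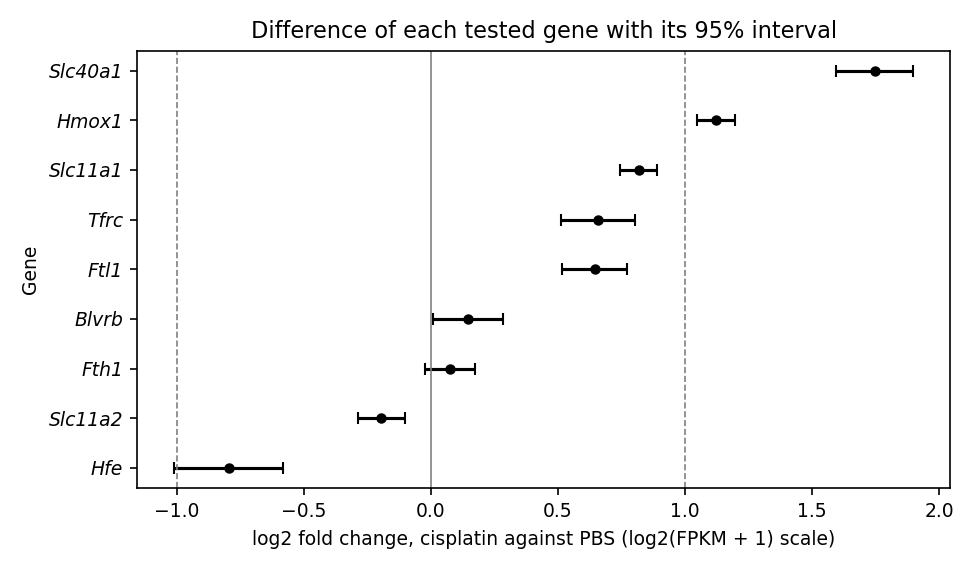
Log2 fold change of each tested member (points, log2(FPKM + 1) scale, cisplatin against PBS) with its 95% interval, and dashed lines at the fold threshold of 1 in both directions. The intervals of Slc40a1 (1.59 to 1.90) and Hmox1 (1.05 to 1.197) lie wholly beyond the upper line, and that of Fth1 (-0.024 to 0.18) includes 0.

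FPKM is scaled by gene length, so the levels of the members can also be set beside each other. The length is that listed for the gene (9000 bases for Slc40a1, 3572 for Hfe and 866 for Fth1), which may differ from that of the transcripts present. The order thus rests in part on the listed lengths. With cisplatin the order was Fth1, Ftl1, Hmox1, Slc11a1, Tfrc, Blvrb, Slc11a2, Slc40a1, Hfe and Cd163, and no neighbours in it overlapped. With PBS the same order held except that Slc40a1 and Hfe could not be separated (3.18 ± 0.25 and 3.13 ± 0.38 FPKM). With cisplatin Slc40a1 stood 9.47-fold above Hfe. Fth1 exceeded Ftl1 by 6.62-fold in the mean with cisplatin and by 9.82-fold with PBS, and heme oxygenase 1 transcripts stood second only to the ferritins among the members in both groups.

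Ratios within a library do not depend on how the libraries are scaled. The heavy to light ferritin chain ratio, Fth1 to Ftl1, was 6.998, 6.38 and 6.51 with cisplatin and 9.34, 10.3 and 9.87 with PBS, hence lower in every cisplatin library (log2 difference -0.57). The export to transferrin-uptake ratio, Slc40a1 to Tfrc, was 0.158 in each cisplatin library and 0.070, 0.054 and 0.061 with PBS, a log2 difference of 1.37. Among the metal transporters, Slc11a1 to Slc11a2 was 9.10, 9.16 and 9.46 with cisplatin and 4.43, 4.66 and 4.49 with PBS (log2 difference 1.03).

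Export against storage, Slc40a1 to Fth1, was 0.00117 ± 3.43e-05 with cisplatin and 0.000302 ± 2.11e-05 with PBS (SD, n = 3 each, log2 difference 1.96). In none of the 4 ratios did the groups overlap. The exact permutation test (two-sided) gave p = 0.1 for each, before and after Benjamini-Hochberg adjustment over the 4. That is the smallest value this test can give with 3 libraries against 3, so it cannot reach 0.05 here. Unlike the scaling, the mix of cells in a library can move such a ratio, and its part was not tested.

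**Figure D3:**
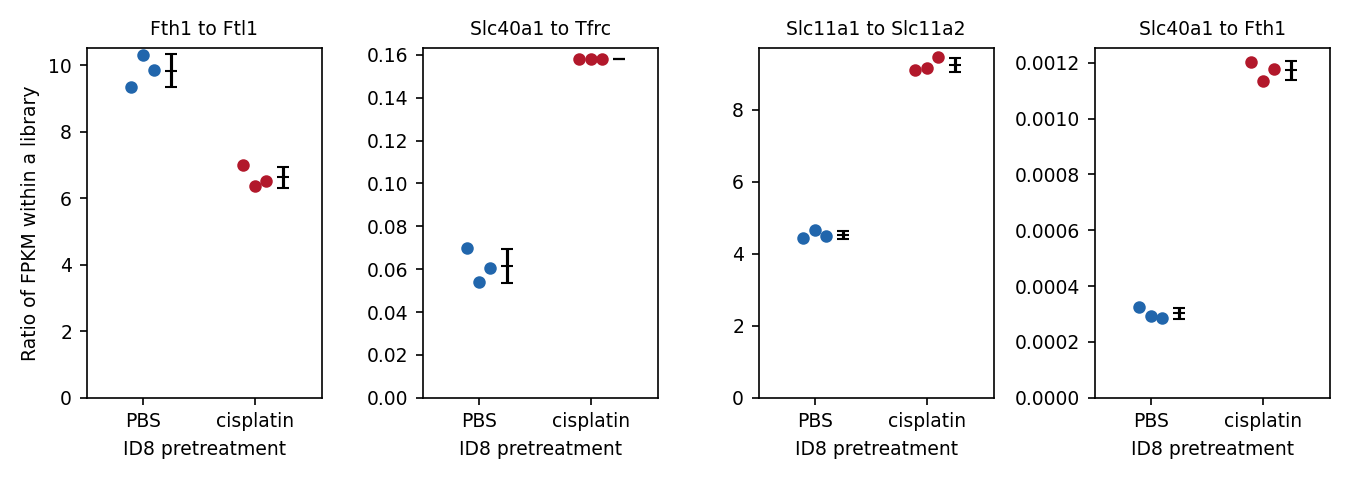
Ratio of the FPKM of paired members within each library for the 3 PBS (blue) and the 3 cisplatin (red) libraries, with the group mean ± SD beside the points and axes that start at 0. The Fth1 to Ftl1 ratio is lower with cisplatin (6.63 ± 0.32 against 9.84 ± 0.49), and the other 3 ratios are higher.

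The other genes of heme and iron metabolism moved in both directions. Over 7 lists with 96 genes, 80 were tested, of which 0 were called higher (22 were higher by the adjusted p alone) and 13 were called lower (limma voom called 4 higher), against the 4.67% and 11.3% of all genes given above. By the adjusted p alone 45 were lower, against 35.1% of all genes lower and 32.9% higher at that threshold. The median log2 fold change of the 80 was -0.26. The summed level of the ID8 and mesothelial markers with cisplatin was 0.185 times that with PBS, and its part in any difference of these lists was not tested.

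In heme breakdown and transport, 4 of 10 tested genes were called lower and 0 higher, and by the adjusted p alone 6 were lower and 3 higher. Hp, which encodes haptoglobin, the plasma protein that binds free haemoglobin for Cd163, went from 707, 676 and 724 FPKM with PBS to 204, 222 and 221 FPKM with cisplatin (log2 fold change -1.70, limma adjusted p = 2.47e-07). The other 3 called, named here after their values were seen, were Hpx (hemopexin, the plasma carrier of free heme, 2.55 ± 0.40 to 0.23 ± 0.048 FPKM, 53 to 80 reads against 5 to 7), Slc46a1 (a transporter of folate and heme, 4.22 ± 0.38 to 1.05 ± 0.053 FPKM) and Lrp1 (the receptor for hemopexin, 91.2 ± 4.52 to 45.1 ± 3.67 FPKM, log2 fold change -1.002), each SD over n = 3. The heme exporter gene Flvcr1, also named after its values were seen, rose short of the fold threshold (4.93 ± 0.56 to 8.56 ± 0.55 FPKM, SD, n = 3, log2 fold change 0.69, limma adjusted p = 0.000317). Thus the haemoglobin and heme scavengers of the plasma and Lrp1 were lower while Hmox1 was higher, and Cd163, under 1 FPKM in each library, also lay higher (ratio of means 2.63).

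In heme synthesis, 1 of 9 tested genes was called lower, Alad, which encodes the enzyme that joins aminolevulinate into porphobilinogen (from 19.7 ± 0.98 to 7.52 ± 0.94 FPKM, SD, n = 3, log2 fold change -1.28, limma adjusted p = 1.38e-05). By the adjusted p alone 6 were lower and 2 higher. One of the latter was Alas1, the gene of the rate-limiting first enzyme, which was named after its values were seen (33.2 ± 0.61 to 53.6 ± 1.71 FPKM, SD, n = 3, log2 fold change 0.68, limma adjusted p = 5.97e-06).

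In iron uptake and reduction, 3 of 8 tested genes were called lower, and by the adjusted p alone 5 were lower and 1 higher. Trf, which encodes transferrin, the ligand of transferrin receptor 1, was at 5.28, 4.64 and 4.41 FPKM with PBS and at 0.80, 0.59 and 1.003 FPKM with cisplatin (log2 fold change -1.69, limma adjusted p = 1.36e-05). Trf passed the filter on low values only through the PBS group, as did Hpx above and Epas1 below, so the filter favoured this direction for these 3 of the 13 called lower. The other 2 called, named after their values were seen, were Lcn2, whose product lipocalin 2 binds bacterial iron carriers (1021 ± 20.4 to 479 ± 9.85 FPKM, SD, n = 3), and the metalloreductase gene Steap2 (7.89 ± 0.40 to 2.69 ± 0.16 FPKM, SD, n = 3).

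Among the partners of ferritin turnover and export, 2 of 5 tested genes were called lower, and by the adjusted p alone 4 were lower and 1 higher. Cp, which encodes ceruloplasmin, the copper oxidase that works with ferroportin to load iron onto transferrin, was at 97.6, 111 and 100.5 FPKM with PBS and at 7.94, 7.93 and 7.98 FPKM with cisplatin. It was thus 12.98-fold lower, with the libraries of each group close together (log2 fold change -3.54, SE 0.054, limma adjusted p = 5.32e-08). Cp overlaps Hps3. Hephl1, a related oxidase gene named after its values were seen, also fell (5.02 ± 0.048 to 1.52 ± 0.17 FPKM, SD, n = 3). Slc40a1 was thus higher and the oxidase genes Cp and Hephl1 lower, while the third oxidase gene of the list, Heph, was too low to be tested.

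In iron sensing and hepcidin control, 2 of 15 tested genes were called lower, and by the adjusted p alone 10 were lower and 3 higher. Bmpr1a, a receptor gene for bone morphogenetic proteins that induce hepcidin, fell from 12.9 ± 0.78 to 2.45 ± 0.34 FPKM (SD, n = 3, log2 fold change -2.02, limma adjusted p = 1.77e-06), and Neo1, which was named after its values were seen, from 14.5 ± 0.61 to 5.41 ± 0.25 FPKM (SD, n = 3). Hamp, the hepcidin gene itself, which overlaps Gm44662, had 1 to 7 reads per library and was not tested. Of the genes of the iron regulatory proteins, Aco1 was lower (24.3 ± 0.31 to 15.9 ± 0.21 FPKM, SD, n = 3, log2 fold change -0.59, limma adjusted p = 8.45e-06), and Ireb2 was at 15.5 ± 0.70 and 14.8 ± 0.86 FPKM with overlapping groups and did not pass the test (limma adjusted p = 0.407). Hamp, Aco1 and Ireb2 were chosen after their values were seen, as was Heph above.

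Mitochondrial iron and iron-sulfur genes were divided, with 0 of 19 tested genes called in either direction by limma and 7 lower and 6 higher by the adjusted p alone. The smallest adjusted p among them was that of Cisd2, which encodes an iron-sulfur protein of mitochondria and the endoplasmic reticulum (7.35 ± 0.19 to 12.3 ± 0.25 FPKM, SD, n = 3, log2 fold change 0.68, limma adjusted p = 1.21e-05). The transcription factors of heme and iron genes were divided as well, with 1 of 14 called lower and 7 lower and 6 higher by the adjusted p alone. The one called was Epas1, the gene of hypoxia-inducible factor 2 alpha (3.22, 3.68 and 3.58 FPKM with PBS to 0.54, 0.56 and 0.99 FPKM with cisplatin, log2 fold change -1.41, limma adjusted p = 5.26e-05).

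The factors known to act on Hmox1 itself, named after their values were seen, did not move as one. Bach1, the repressor that heme removes from the Hmox1 gene, was higher (28.4 ± 1.29 to 35.7 ± 1.48 FPKM, SD, n = 3, log2 fold change 0.32, limma adjusted p = 0.00102). Nfe2l2, the gene of the activator NRF2, was lower (109 ± 3.001 to 91.3 ± 4.70 FPKM, log2 fold change -0.25, limma adjusted p = 0.00243), as was Keap1, whose product marks NRF2 for degradation (log2 fold change -0.55, limma adjusted p = 0.000209). The small Maf partners differed in direction, with Mafg (log2 fold change 0.92, limma adjusted p = 7.58e-07) and Mafk (0.21, limma adjusted p = 0.0124) higher and Maff lower (-0.93, limma adjusted p = 1e-04). These are transcript levels and give no measure of the activity of the factors. Among the other pathway genes named, Lrp1, Flvcr1, Alas1, Trf, Bmpr1a, Neo1, Nfe2l2, Keap1, Mafg and Mafk overlap another gene of the annotation, so their values are less certain.

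**Figure D4:**
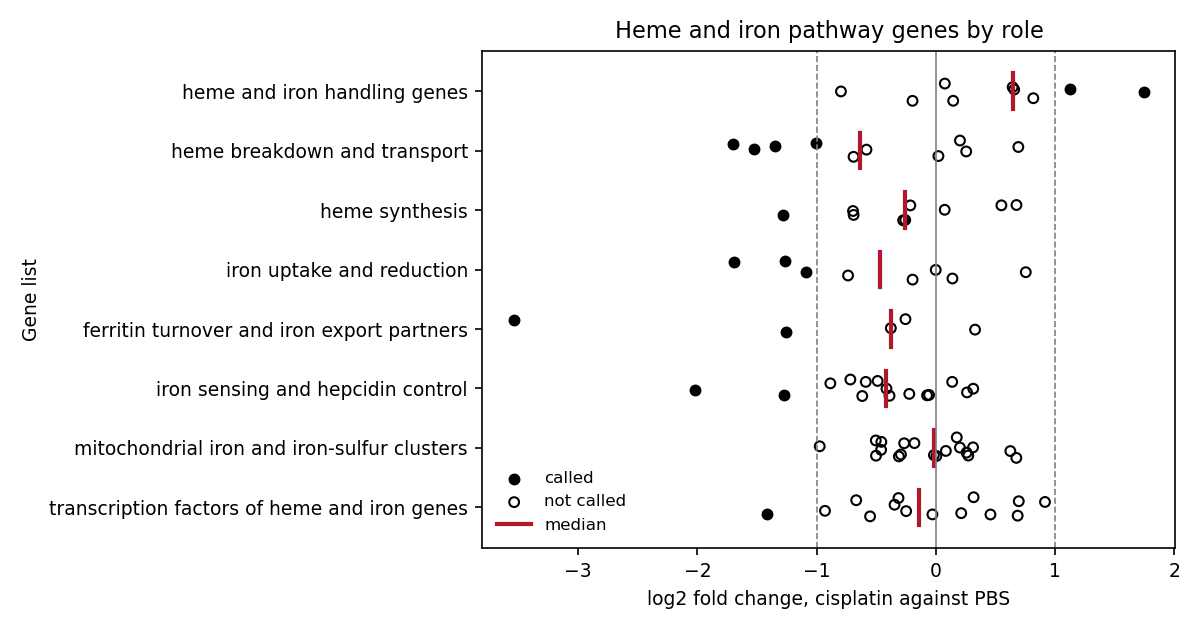
Log2 fold change of every tested gene (circles, filled where called) in the list of members and in the 7 lists of other heme and iron genes, with the median of each list in red and dashed lines at the fold threshold of 1. The members have a median of 0.64, while the medians of the other lists lie between -0.64 and -0.016 and all 13 called genes among them are lower.

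Red blood cells and the macrophages that recycle them are the textbook sites of these genes, so their markers were set beside the members. The 11 erythroid markers listed summed to 73.8 to 78.2 FPKM with cisplatin and 66.3 to 69.9 FPKM with PBS, and 0 of the 4 tested passed limma's adjusted p (also 0 called). Alas2, the erythroid enzyme gene, was near 1 FPKM in both groups, with 31 to 54 reads against 33 to 37. The 7 markers of iron-recycling and tissue macrophages summed to 9.25 to 9.58 FPKM with cisplatin and to 28.4 to 29.6 FPKM with PBS. Of these, Spic, the transcription factor gene of red pulp macrophages, was higher (0.81, 1.09 and 1.09 to 2.77, 1.998 and 1.97 FPKM, log2 fold change 0.70, limma adjusted p = 0.00226, tested only through its cisplatin values). Most of the fall of the sum was Vcam1 (18.4 ± 1.12 to 2.42 ± 0.21 FPKM, SD, n = 3). Like Vcam1, Cd5l (4.87 ± 0.62 to 1.75 ± 0.59 FPKM) and Siglec1 (4.79 ± 0.11 to 2.90 ± 0.022 FPKM) were lower in every cisplatin library. Clec4f, Vsig4 and Timd4 were at or near 0 in both groups.

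The smaller rises changed direction under 1 of the settings, scaling by Y-linked genes, while Slc11a2 and Hfe stayed lower. No other setting reversed a tested member, and quantile normalisation put Fth1 at 0. Such scaling multiplies all genes of a library by a common factor. Rises smaller than the shift it brings therefore turn negative by construction. When each library was scaled to the same sum of Ddx3y, Uty, Kdm5d and Eif2s3y, 4 genes of the Y chromosome, which were higher with cisplatin (41.6 to 42.8 against 19.5 to 22.7 FPKM in sum), the median of all genes tested moved as given above. Tfrc (-0.31), Slc11a1 (-0.15), Ftl1 (-0.33), Fth1 (-0.90) and Blvrb (-0.80) then changed sign, Hmox1 went to 0.15 (limma adjusted p = 0.155), and Slc40a1 stayed higher at 0.92 (limma adjusted p = 1.17e-05). Relative to that median, the values of the members not yet given were 0.022 for Blvrb, -0.080 for Fth1, -0.30 for Slc11a2 and -0.65 for Hfe, and the order of the 9 members by change was the same as with the values as deposited. The rises of the other pathway genes named above (log2 fold change 0.21 to 0.92) were of the size of that shift or smaller, and Cisd2 changed sign under it (-0.21). Cd163 was not tested under this scaling.

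**Figure D5:**
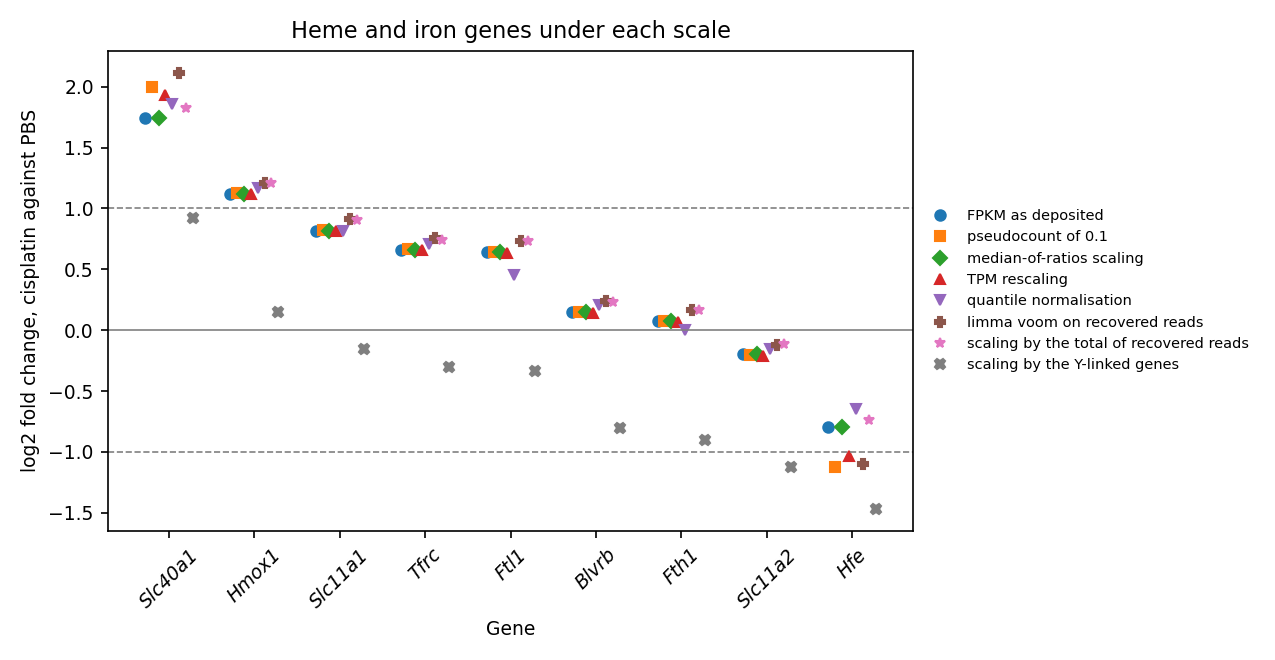
Log2 fold change of each tested member under the values as deposited and under 7 other pseudocounts, scalings or fits, with dashed lines at the fold threshold of 1. Scaling by the Y-linked genes (grey crosses) lowers every member and takes 5 of the 7 with a positive value below 0, and Slc40a1 (0.92 to 2.12) remains the highest under each.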

How the data were processed

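RNA selected with poly-T beads was sequenced in 6 libraries, 3 per group, and groups were taken from the treatment labels. The deposited table gives FPKM per gene, calculated by the authors, together with gene length and coordinates (mm10). The submitters' processing notes name fastp, HISAT2 2.0.5 and featureCounts 1.5.0-p3, whereas the study's methods name LifeScope for alignment and counting and DESeq2 for testing, and which made the table is unresolved. Whether counting used strand is not given in the sources used here. Of the listed genes, 54409 were found in GENCODE M21 (98.3% with the same coordinates).

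FPKM times length gave whole reads (100% of values worth under 200 reads, tolerance 0.02), and FPKM denominators were 103.7% to 104.1% of the recovered sums with cisplatin and 97.4% to 98.7% with PBS. The study's count test was not applied to FPKM. Genes with FPKM of at least 1 in at least 3 libraries were transformed to log2(FPKM + 1) and fitted with limma 3.58.1 in R 4.3.3 (lmFit, eBayes with a trend, group as the only term, two-sided, Benjamini-Hochberg). This scale understates changes of low genes. The thresholds for a call were 0.05 for the adjusted p and 1 for the size of the log2 fold change. Within-library ratios were compared on the log2 scale by exact permutation tests. The procedure was tested on simulated reads. Alternatives comprised a pseudocount of 0.1, no filter or 5 FPKM, 5 other scalings (one, the total of recovered reads, chosen after seeing the data), eBayes without a trend, limma voom on recovered reads, a replicate block, limma treat, leaving out each library and, for the ratios, added ferritin copies or 1 added to both values.

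The members, the lists and the markers were chosen with earlier results of these data known, so they are no independent evidence. Named genes were all members, every row beginning with Fth or Ftl, and from each list the called gene with the largest rise and fall or, with none called, that with the smallest adjusted p. Any other gene is said to be chosen after its values were seen, markers and the Y-linked genes apart. Ahsp, an erythroid marker, was not found in the table.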

Additional observations from a re-analysis of the deposited data

How the results depend on the processing

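Across 17 planned settings and 1 added after seeing the data, Slc40a1 kept its direction and its side of the adjusted p threshold (log2 fold change 0.92 to 2.12). Scaling by the Y-linked genes gave 0 members called higher and 2 lower (Hfe and Slc11a2), 47 other pathway genes called lower, and reversed Blvrb (-0.80), Tfrc (-0.31), Slc11a1 (-0.15), Fth1 (-0.90), Ftl1 (-0.33) and Cisd2 (-0.21), against a median of all genes of -0.82. Quantile normalisation moved that median to 0.10 and Fth1 to 0. A pseudocount of 0.1, TPM rescaling and limma voom each gave 1 member called lower, which was Hfe (-1.13, -1.04 and -1.10). The number of other pathway genes called higher, 0 as deposited, was 2 with a pseudocount of 0.1, 4 with voom and 1 when scaled by the total of recovered reads (chosen after seeing the data), and the number called lower, 13 as deposited, was 8 with a filter at 5 FPKM, which tests fewer genes, and 8 with limma treat, under which 2 members passed. In its direction as deposited, Blvrb passed the adjusted p threshold in 6 settings and Fth1 in 2 (voom, adjusted p = 6.94e-06, and the total of recovered reads, adjusted p = 0.0132), and both also passed, reversed, under scaling by the Y-linked genes (adjusted p = 0.000101 and 4.23e-05). Leaving out each library in turn gave 2 members called higher, 0 lower, 7 to 8 past the adjusted p alone, and 12 to 14 other pathway genes called lower. Same-numbered libraries did not deviate together (correlation -0.10, -0.086 and -0.024 for replicates 1 to 3, none above 0.1), and with a replicate block 2 members were called higher and 0 lower, with Blvrb past the threshold (adjusted p = 0.0462). The log2 differences of the ratios ranged from -0.61 to -0.54 for Fth1 to Ftl1 (-0.57 with the ferritin copies added) and from 1.09 to 1.46 for Slc40a1 to Tfrc. The cause of these shifts was not tested. Counts rest on 3 libraries a group, and Cd163, at 20 to 80 reads, is limited by depth.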

Other observations

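The iron-responsive element pattern was also looked up in genes that are no members. At the 5′ untranslated region it lay in 28 such genes, of which 21 were tested, 1 was called higher and 2 lower, with 10 higher and 7 lower by the adjusted p alone and a median log2 fold change of 0.13. At the 3′ untranslated region it lay in 128, of which 93 were tested, 1 was called higher and 14 lower, with 24 higher and 39 lower by the adjusted p alone and a median of -0.052. Over all genes tested, 4.67% were called higher and 11.3% lower, and 32.9% were higher and 35.1% lower by the adjusted p alone. Beside these genes, the members Fth1, Ftl1 and Slc40a1, which carry the pattern at the 5′ end, had log2 fold changes of 0.076, 0.64 and 1.75. Tfrc, which carries it at the 3′ end, had 0.66. Transcript levels say nothing of translation, which is where an element at the 5′ end is known to act, and whether the pattern bears on any of these values was not tested.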
